A study of Arabidopsis thaliana with 16 samples.

Results

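ROF2 and AT3G09440 are 2 genes of the protein folding machinery, out of 13356 Arabidopsis thaliana genes that the platform annotation ties to a probe set of their own. ROF2 (locus AT5G48570, also called FKBP65) was read by probe set 248657_at, and AT3G09440, which encodes a heat shock cognate 70 protein, by 258979_at. Each gene had 1 probe set. Both were chosen on their difference between 22 and 16 °C in wild-type plants on these same arrays, so that difference, and every genotype difference at a single temperature that contains part of it, is described here without a test.

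The arrays were Affymetrix ATH1 arrays of whole plants without roots. The mutant was phyB-1, which lacks the red and far-red light receptor phytochrome B in all its tissues, and its wild type was Landsberg erecta (Ler). Plants of both genotypes were labelled 22 °C or 16 °C and 10 h or 4 h, which gives 8 groups of 2 arrays each and 16 arrays in all. The zero point of the hours is not given. All samples carry 1 growth protocol (11 days at 16 °C, then 21 at 22 °C), so how plants labelled 16 °C were kept is unclear. Separate plants for the replicates are not stated either, and the p-values then measure only the spread between arrays, which may be technical.

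Heat shock cognate 70 proteins bind unfolded stretches of other proteins and release them in cycles of ATP hydrolysis, and they work in unstressed as well as in heated cells. ROF2 belongs to the FK506-binding proteins, a family named for the peptidyl-prolyl isomerase fold that binds the drug FK506. It is known as a heat-induced partner of ROF1, a close relative, and takes part in controlling heat-inducible transcription in Arabidopsis. Phytochrome B is itself a temperature sensor, because its active form reverts faster to the inactive one when it is warm.

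The values are scaled intensities, 1 per probe set, and the median over probe sets was 30.7 to 41.0 on the 16 arrays. It was 36.8 to 41.0 on the replicate 1 arrays and 30.7 to 33.2 on the replicate 2 arrays. Each array was scored for time, as the mean log2 value of the 100 probe sets most raised at 10 h minus that of the 100 most lowered, taken without phyB-1 at 16 °C and centred over arrays. Arrays labelled 10 h lay at 2.42 to 3.02, except replicate 2 of phyB-1 at 16 °C, at -2.18. Arrays labelled 4 h lay at -2.93 to -2.58, except replicate 2 of phyB-1 at 16 °C, at 2.83. These 2 arrays go against their time labels. They kept their labels, and the tests that use them are given with and without them. The 3 of 9 green shoot markers with a named probe set (LHCB4.1, PRK and RCA) summed to intensities of 12850 to 26570 on the 16 arrays. Of 5 root markers only PYK10 had a named probe set, and no flower or seed marker had one. PYK10, a beta-glucosidase gene of roots and young seedlings, had an intensity of 300.9 to 373.9 at 22 °C and 211.5 to 262 at 16 °C in phyB-1. In Ler it had 182.3 to 259 at 22 °C and 92.2 to 233.9 at 16 °C. PYK10 thus moved with temperature in phyB-1 without overlap, and its part in the results below was not tested. The log2 ratio of 3' to 5' GAPDH control signal, a measure of RNA integrity, overlapped between 22 and 16 °C in both genotypes (0.60 to 0.81 against 0.51 to 1.63 in phyB-1, 0.32 to 0.75 against 0.53 to 0.73 in Ler). In phyB-1 the overlap came from the 2 arrays that go against their time labels (0.79 and 0.51). Replicate 1 at 16 °C was at 1.03 and 1.63, above every phyB-1 array at 22 °C. The same ratio for actin was 3.47 to 3.99 against 3.17 to 3.54 in phyB-1 and 3.26 to 3.98 against 3.05 to 4.26 in Ler. What RNA integrity contributed to the temperature differences was not tested. In whole shoots, fewer cells that express a gene and less RNA per cell cannot be told apart.

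ROF2 was higher at 22 °C than at 16 °C in both genotypes and at both times. In phyB-1 at 22 °C it had intensities of 121 and 112 at 10 h and of 58.5 and 45.9 at 4 h. In phyB-1 at 16 °C it had 9.36 and 11.6 at 10 h and 16.7 and 6.51 at 4 h. All 4 phyB-1 arrays at 22 °C lay above all 4 at 16 °C. In Ler at 22 °C, ROF2 had intensities of 37.0 and 49.7 at 10 h and of 45.6 and 36.6 at 4 h. In Ler at 16 °C it had 10.6 and 5.86 at 10 h and 8.94 and 7.29 at 4 h. The lowest of the 8 arrays at 22 °C, 36.6, was above the highest of the 8 arrays at 16 °C, 16.7. The Ler arrays among them are those on which the gene was chosen. The share of all probe sets that separate in this way was not counted.

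The 16 °C values are dim. They stood at percentiles 22.5 to 32.8 of all probe sets on their arrays, close to the lower quartiles of 5.84 to 11.5, and no detection calls were used, so whether the transcript was present at 16 °C was not determined. At 22 °C the gene stood at percentiles 50.0 to 76.4. The ratio of mean intensities, 22 over 16 °C, was 7.64 in phyB-1 and 5.16 in Ler (4 arrays against 4 in each), and such ratios against a dim level carry a wide error. On the scale of log2(intensity + 16), where 16 keeps dim values from dominating and understates changes of dim genes, the difference in Ler was 1.27 ± 0.19 (SE).

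The difference in phyB-1 does not use the Ler arrays on which the gene was chosen. It was 1.82 ± 0.19 on the log2 scale (SE, 95% interval 1.41 to 2.24, adjusted p = 0.00065, limma's moderated test with Benjamini-Hochberg adjustment over 13648 probe sets), and ROF2 ranked 5 by p among them. In that comparison 0.381% of all probe sets were called higher at an adjusted p under 0.05. The 2 sets of arrays with the same replicate number gave 1.81 and 1.84. Without the 2 arrays that go against their time labels the difference was 1.72 (adjusted p = 0.00086). The same gene had been seen to move in Ler, so the result in phyB-1 is the same measure in other arrays and not an independent choice.

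**Figure D1:**
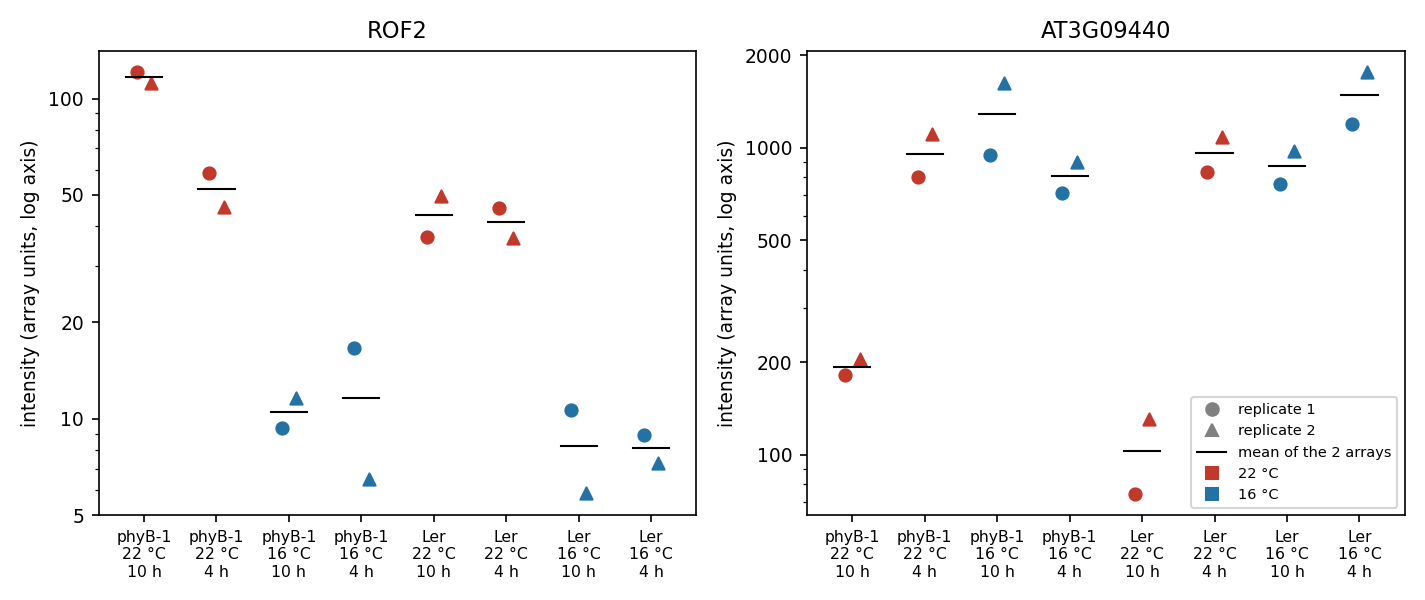
Intensity of ROF2 (left) and AT3G09440 (right) on each of the 16 arrays, on log axes in the arrays' own units, by genotype, temperature and time. Circles are replicate 1, triangles replicate 2 and bars the mean of the 2 arrays of a group. ROF2 is above 36 on every array at 22 °C and below 17 on every array at 16 °C, and AT3G09440 is below 206 only on the 4 arrays at 22 °C and 10 h.

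AT3G09440 was low in 1 combination of temperature and time. At 22 °C and 10 h it had intensities of 182 and 205 in phyB-1 and of 74.2 and 131 in Ler. At 22 °C and 4 h it had 800 and 1107 in phyB-1 and 834 and 1085 in Ler. At 16 °C and 10 h it had 946 and 1627 in phyB-1 and 762 and 977 in Ler, and at 16 °C and 4 h it had 712 and 901 in phyB-1 and 1197 and 1765 in Ler. The 4 arrays at 22 °C and 10 h did not overlap with the other 12, whose lowest value was 712. How many of all probe sets show such a gap was not counted.

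The mean at 22 °C was therefore low in both genotypes through the 10 h arrays. At 10 h the mean at 16 °C was 6.65 times that at 22 °C in phyB-1 and 8.48 times in Ler. At 4 h the mean at 22 °C was 1.18 times that at 16 °C in phyB-1, and in Ler the mean at 16 °C was 1.54 times that at 22 °C. The phyB-1 means at 16 °C are by label and include the 2 arrays that go against their time labels. In replicate 1 of phyB-1 alone, the 16 °C array was 5.21 times the 22 °C array at 10 h. At 4 h the 22 °C array was 1.12 times the 16 °C array there. Averaged over both times, the 22 minus 16 °C difference in phyB-1 was -1.18 ± 0.22 on the log2 scale (95% interval -1.66 to -0.70, limma, adjusted p = 0.033), where 0.256% of all probe sets were called lower. The difference in Ler, on which the gene was chosen, was -1.77 ± 0.22.

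The call in phyB-1 is close to the threshold. The replicate sets gave -1.06 and -1.30, and without the 2 arrays in doubt the difference was -0.90 (adjusted p = 0.032). Leaving out 1 array at a time gave -1.37 to -0.99, and 7 of the 16 such fits lost the call, with adjusted p up to 0.18. The fits that lost it left out any 1 of the 4 phyB-1 arrays at 22 °C, either Ler array at 22 °C and 4 h, or phyB-1 16 °C 10 h replicate 2.

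AT3G09440 was lower at 10 h than at 4 h in Ler at both temperatures and in phyB-1 at 22 °C. In phyB-1 at 16 °C it was higher on the array labelled 10 h in replicate 1, whose arrays fit their time labels (946 at 10 h and 712 at 4 h). It was also higher on the array labelled 10 h in replicate 2 (1627 against 901), but those arrays go against their time labels. This direction at 16 °C thus rests on 1 pair of arrays. Averaged over all 8 groups the difference was -1.35 ± 0.16 (8 arrays against 8, limma, adjusted p = 0.0013), where 19.1% of all probe sets were called, 9.68% as lower and 9.47% as higher. It was -1.40 without the 2 arrays in doubt, where 32.7% of probe sets were called. ROF2 was at 0.25 ± 0.14 (adjusted p = 0.24) with all arrays and at 0.16 without those 2 (adjusted p = 0.47). In Ler the 10 h minus 4 h difference averaged over both temperatures was -1.91 ± 0.22 (95% interval -2.39 to -1.43, limma, adjusted p = 0.0022), and it ranked 4 by p of 13648 probe sets. In that comparison 8.7% of all probe sets were called lower. It is another difference on the same Ler arrays on which the gene was chosen, so its rank and p are not free of that choice. In phyB-1 at 22 °C the difference was -2.19 ± 0.31 (limma, adjusted p = 0.018), ranked 5, where 1.27% were called lower. The replicate sets gave -2.05 and -2.34 in phyB-1 at 22 °C and -1.94 and -1.87 in Ler. The call in phyB-1 at 22 °C was lost when any 1 of its 4 arrays was left out (-2.42 to -1.96, adjusted p of 0.17 to 0.23), where the lone array left is taken to vary like the other groups.

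The time difference was set side by side at both temperatures. In Ler the 4 h mean was 9.35 times the 10 h mean at 22 °C and 1.70 times at 16 °C. The difference of these differences, the temperature by time interaction in Ler, was -2.33 ± 0.45 on the log2 scale (95% interval -3.29 to -1.37), and both replicate sets had this sign (-2.59 and -2.06). It ranked 3 by p of 13648 probe sets but missed the threshold after adjustment (limma, adjusted p = 0.66), and with all 16 arrays no probe set was called in this comparison (514 had an unadjusted p under 0.05). It uses the Ler arrays alone, on which the gene was chosen, and the low arrays at 22 °C and 10 h enter both differences. Its rank and p are thus not free of that choice. The 2 arrays that go against their time labels enter only through the shared spread. Without them the estimate was the same and was called (adjusted p = 0.013), where 36 probe sets were called, 0.264% of those tested. With the replicate number as a block over all 16 arrays it was called as well (adjusted p = 0.013), as the 1 probe set called there.

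In phyB-1 the temperature by time interaction, added after the data were seen, was -2.82 ± 0.45. It had the smallest p of all probe sets, with an adjusted p of 0.17 (limma). With the replicate number as a block over all 16 arrays it was called (-2.82, adjusted p = 0.0017), as the 1 probe set called there. It includes the 2 arrays in doubt. Without them it was -2.60 (adjusted p = 0.044, where 0.0733% of probe sets were called), with phyB-1 at 16 °C resting on 1 array per time. At 22 °C, the mean of phyB-1 at 4 h was 4.93 times that at 10 h. At 16 °C the mean at 10 h was 1.59 times that at 4 h by label, with ratios of 1.33 in replicate 1 and 1.81 in replicate 2. The arrays of replicate 2 are the 2 in doubt. For ROF2 the same interaction was 1.00 ± 0.38 (adjusted p = 0.33) with all arrays and 1.33 without those 2 (adjusted p = 0.45).

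**Figure D2:**
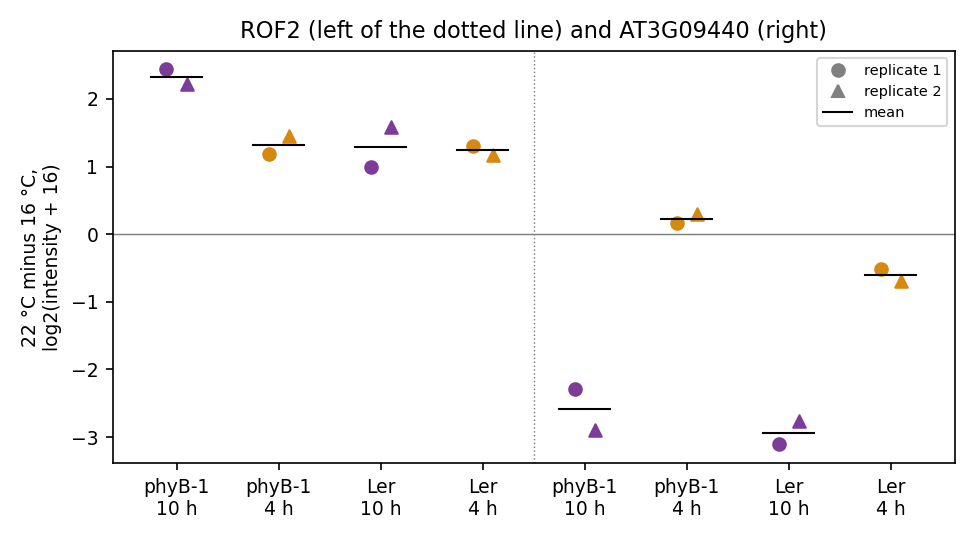
Difference 22 °C minus 16 °C in log2(intensity + 16) for ROF2 and AT3G09440, by genotype and time, with 10 h in purple and 4 h in orange. Circles and triangles are replicate 1 and replicate 2, and bars their mean. Times are by label, and the phyB-1 triangles use the 2 arrays at 16 °C that go against their time labels. ROF2 lies between 0.99 and 2.44 at every point, and AT3G09440 lies between -3.11 and -2.28 at 10 h and between -0.69 and 0.29 at 4 h.

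ROF2 was not called for time in Ler. Its 10 h minus 4 h difference there was 0.03 ± 0.19 (95% interval -0.38 to 0.44, limma, adjusted p = 0.95), and its temperature by time interaction in Ler was 0.05 ± 0.38 (adjusted p = 1.00). In phyB-1 at 22 °C both 10 h arrays were above both 4 h arrays, at a ratio of means of 2.24. The log2 difference was 0.97 ± 0.27 (95% interval 0.38 to 1.55), which missed the threshold (limma, adjusted p = 0.070), while both replicate sets were above 0 (0.88 and 1.05). Of all probe sets 2.45% were called there, 1.17% as higher. Without the 2 arrays in doubt, which are not part of this comparison, ROF2 was called (0.97, adjusted p = 0.023), as were 15.6% of all probe sets.

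The 2 arrays of phyB-1 at 22 °C and 10 h were the highest of all 16 for ROF2. At 22 °C the phyB-1 mean was 2.69 times the Ler mean at 10 h and 1.27 times at 4 h. Whether the time difference at 22 °C differed between phyB-1 and Ler was tested directly as an interaction, which was 0.91 ± 0.38 (95% interval 0.09 to 1.74, limma, adjusted p = 1.00) and ranked 31 by p. No probe set was called there with all 16 arrays (76 had an unadjusted p under 0.05). Over all groups the phyB-1 minus Ler difference of ROF2 was 0.43 ± 0.14 (8 arrays against 8, adjusted p = 0.45), where 0.117% of probe sets were called, 0.0953% as higher. It was 0.48 without the 2 arrays in doubt (adjusted p = 0.18), where 0.953% were called. The genotype difference was 0.71 ± 0.19 at 22 °C and 0.15 ± 0.19 at 16 °C, given without a test because both contain part of the difference on which the gene was chosen. At 16 °C it was 0.26 without the 2 arrays in doubt.

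AT3G09440 was not called for genotype. Its phyB-1 minus Ler difference was 0.13 ± 0.16 over all groups (95% interval -0.21 to 0.47, limma, adjusted p = 0.92) and -0.0095 without the 2 arrays in doubt (adjusted p = 0.98). At 22 °C and 10 h the phyB-1 arrays, at 182 and 205, were above the Ler arrays, at 74.2 and 131, a ratio of means of 1.89. At 22 °C and 4 h the ratio was 0.99. The genotype by time interaction at 22 °C was 0.88 ± 0.45 (adjusted p = 1.00), and 1.19 in set 1 and 0.56 in set 2. At 16 °C the same interaction, added after the data were seen, was 1.36 ± 0.45 with all 16 arrays (adjusted p = 0.42) and 1.14 without the 2 arrays in doubt (adjusted p = 0.98). The mean over both times was 0.42 ± 0.22 higher in phyB-1 at 22 °C and was -0.17 ± 0.22 at 16 °C (-0.44 without the 2 arrays in doubt), again without a test.

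Ordered by mean, ROF2 was lowest in Ler at 16 °C (8.11 ± 1.17 at 4 h and 8.25 ± 3.39 at 10 h, SD, n = 2), followed by phyB-1 at 16 °C (10.5 ± 1.59 at 10 h and 11.6 ± 7.20 at 4 h). The values of these 4 groups overlapped from each to the next. A gap separated them from Ler at 22 °C (41.1 ± 6.33 at 4 h and 43.4 ± 9.00 at 10 h), which overlapped with phyB-1 at 22 °C and 4 h (52.2 ± 8.91). Above these, without overlap, stood phyB-1 at 22 °C and 10 h (117 ± 6.34). For AT3G09440 the order began with Ler at 22 °C and 10 h (103 ± 40.1) and phyB-1 at 22 °C and 10 h (193 ± 16.9), each clear of the next group. The other 6 groups, from phyB-1 at 16 °C and 4 h (807 ± 133) to Ler at 16 °C and 4 h (1481 ± 402), overlapped from each to the next. Replicate 2 of AT3G09440 was above replicate 1 in 8 of 8 groups. The array medians also differed by replicate number, and how many other probe sets did as AT3G09440 was not counted. Intensities of different probe sets cannot be set against each other, so the levels of the genes are not compared.

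Other chaperone genes were examined in 9 lists of 161 genes. A probe set of their own was annotated for 53 of them, and 45 passed the filter on dim probe sets. None of the 7 HSP90 genes and none of the 23 heat shock factor and regulator genes had a named probe set. HSP90 and the transcription factors of the heat response were thus not analysed here. Apart from ROF2 and AT3G09440, 43 listed genes were tested. For temperature, none of these 43 was called in phyB-1 (limma, 4 at an unadjusted p under 0.05) or in Ler (3 at an unadjusted p under 0.05), where 0.637% and 0.396% of all probe sets were called in either direction, so a count of 0 is near the background. Their log2 differences ran from -0.70 to 0.55 with a median of -0.04 in phyB-1 and from -0.70 to 0.55 with a median of -0.03 in Ler, beside medians of 0.00 and 0.01 over all probe sets. Without the 2 arrays in doubt 2 cyclophilin genes, AT2G21130 (-0.80 ± 0.17, adjusted p = 0.015) and AT3G15520 (-0.78 ± 0.17, adjusted p = 0.015), fell at 22 °C in phyB-1, where 3.82% of probe sets were called.

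Among the HSP70 genes, 4 of 18 were tested. Hsp70-2 (AT5G02490) had a 22 minus 16 °C difference of 0.24 in phyB-1 and -0.03 in Ler, AT1G11660 of 0.09 and 0.30, and AT4G16660 of -0.05 and 0.24, and none was called with all 16 arrays. In phyB-1 Hsp70-2 was at 0.55 without the 2 arrays in doubt (adjusted p = 0.22), and with the replicate block as well it was called higher at 22 °C (0.73, adjusted p = 0.042), where 5.79% of probe sets were called. These genes encode proteins of the same family as AT3G09440, and whether related transcripts also bind to its probe set was not tested. In Ler AT4G16660 fell at 10 h (-0.68 ± 0.19, adjusted p = 0.028), while Hsp70-2 was at -0.21 and AT1G11660 at -0.25. In phyB-1 at 22 °C, AT4G16660 was at -0.81, Hsp70-2 at -0.39 and AT1G11660 at -0.07, none of them called with all 16 arrays. AT4G16660 was called at the same value without the 2 arrays in doubt (adjusted p = 0.034).

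Among the FK506-binding protein genes, 12 of 22 were tested and ROF2 was the 1 called for temperature in phyB-1. The other 11 were at -0.29 to 0.33 in phyB-1 and -0.30 to 0.33 in Ler. The largest of these values were those of AT1G18170 (0.33 in both genotypes), AT1G20810 (-0.29 in phyB-1 and -0.10 in Ler) and AT3G55520 (-0.15 and -0.30). AT4G26555 was at 0.18 and 0.27, AT3G12340 at -0.04 and 0.18, AT5G13410 at -0.03 and 0.15, and AT3G60370 at 0.05 and -0.21. AT2G43560 was at -0.21 and -0.15, AT4G19830 at -0.08 and -0.21, AT3G10060 at -0.19 and 0.02, and AT1G73655 at -0.18 and -0.05. With time, AT1G73655 rose at 10 h in Ler (1.2 ± 0.21, adjusted p = 0.0039) and in phyB-1 at 22 °C (1.36 ± 0.29, adjusted p = 0.038), and AT4G26555 rose in Ler (0.67 ± 0.17, adjusted p = 0.018).

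For time, 5 of the 43 other listed genes rose and 2 fell at 10 h in Ler, beside 8.48% and 8.7% of all probe sets (17.2% in either direction, so 7 of 43 is near the background), and 3 rose and 1 fell in phyB-1 at 22 °C, beside 1.17% and 1.27%. Fes1A (AT3G09350), which encodes an HSP70-binding co-chaperone that protects cytosolic HSP70 from degradation, rose in both. Its intensities in phyB-1 at 22 °C were 260 and 193 at 10 h against 68.6 and 47.7 at 4 h (log2 1.71 ± 0.27, adjusted p = 0.026). In Ler at 22 °C they were 190 and 174 at 10 h against 68.3 and 85.9 at 4 h, and at 16 °C 96.8 and 145 against 51.9 and 82.3 (0.91 ± 0.19 over both temperatures, adjusted p = 0.0070). Fes1A was thus higher at 10 h in Ler and in phyB-1 at 22 °C, where AT3G09440 was lower. So was any probe set that rose with time in these groups, and a link between Fes1A and AT3G09440 was not tested.

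Of the small heat shock protein list 2 genes were tested. AT4G21870 rose at 10 h in Ler (1.98 ± 0.52, adjusted p = 0.020) and was at 1.54 in phyB-1 at 22 °C. AT1G54050 had intensities of 101 and 83.3 at 10 h against 30.7 and 31.3 at 4 h in phyB-1 at 22 °C, where it rose (1.2 ± 0.28, adjusted p = 0.046), and was at -0.12 in Ler. Another 6 named small heat shock protein genes did not pass the filter on dim probe sets. The other calls in Ler were the cyclophilin gene AT2G21130 (1.04 ± 0.18, adjusted p = 0.0039) and CRT1b, a calreticulin gene of the endoplasmic reticulum (-0.60 ± 0.16, adjusted p = 0.022). Cpn60beta2, a chaperonin gene, fell in phyB-1 at 22 °C (-0.90 ± 0.21, adjusted p = 0.044).

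Without the 2 arrays in doubt, 7 of these genes rose and 2 fell at 10 h in Ler, where 25.9% of probe sets were called in either direction, and 7 rose and 3 fell in phyB-1 at 22 °C, where 15.6% were called.

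**Figure D3:**
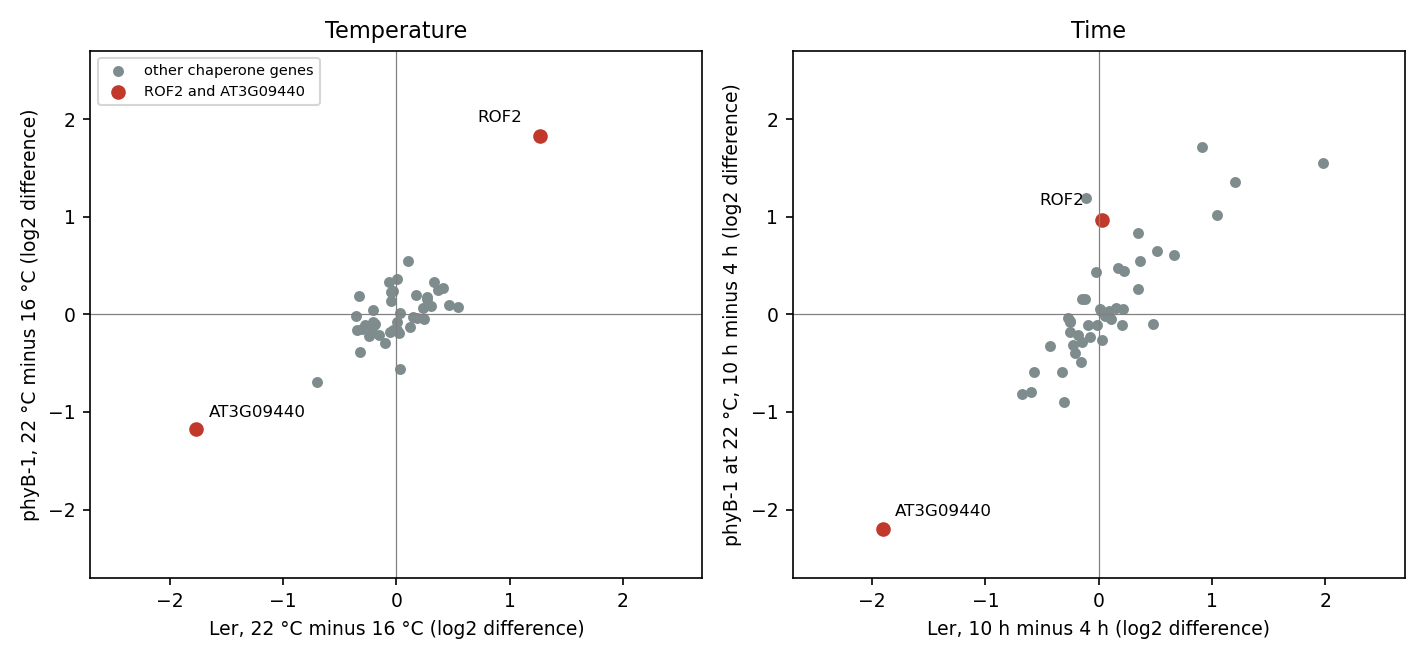
Log2 differences of the 45 tested chaperone genes in phyB-1 (vertical) and Ler (horizontal), for 22 °C minus 16 °C (left) and 10 h minus 4 h (right, with phyB-1 at 22 °C). Each point is 1 gene, with ROF2 and AT3G09440 in red. For temperature the 43 other genes lie between -0.70 and 0.55 on both axes, while ROF2 is at 1.82 in phyB-1 and 1.27 in Ler and AT3G09440 at -1.18 and -1.77. These 2 genes were chosen on the Ler temperature difference, so their distance from the other genes on that axis was set by the choice.

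The genes with the pattern most like that of each gene were sought among 7300 other named genes by Pearson's r over the 16 arrays, as a description with no test, since all points share the arrays, their scaling and the temperature contrast. ROF2 and AT3G09440 themselves correlated at -0.63. For ROF2 the closest were AT1G65720 (0.94), AT1G06640 (0.93), AT5G65260 (0.88), AT2G28410 (0.88) and AT4G19430 (0.88). AT1G65720 had intensities of 1556 and 1592 in phyB-1 at 22 °C and 10 h, its highest group, and of 857 to 1060 on the phyB-1 arrays at 16 °C. AT4G19430 was at 45.2 and 84.5 in phyB-1 at 22 °C and 10 h and at 72.4 and 99.3 at 4 h, while its phyB-1 arrays at 16 °C lay between 1.46 and 5.64.

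For AT3G09440 the closest were AT1G14580 (0.95), AT4G35320 (0.93), AT3G25410 (0.92), AT4G28780 (0.91) and AT2G23120 (0.90). All 5 had their single lowest array at 22 °C and 10 h in Ler. In that condition the genotypes overlapped for AT1G14580 (25.1 and 37.7 in phyB-1, 18.4 and 26.4 in Ler). They also overlapped for AT3G25410 (121 and 166 in phyB-1, 107 and 143 in Ler). AT4G35320 was at 53.7 and 78.8 in phyB-1 and at 10.8 and 28.2 in Ler in that condition, against 88.9 to 157 in all other groups. AT2G23120 was at 388 and 562 in phyB-1 and at 248 and 342 in Ler, against 710 to 1433 in all other groups.

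**Figure D4:**
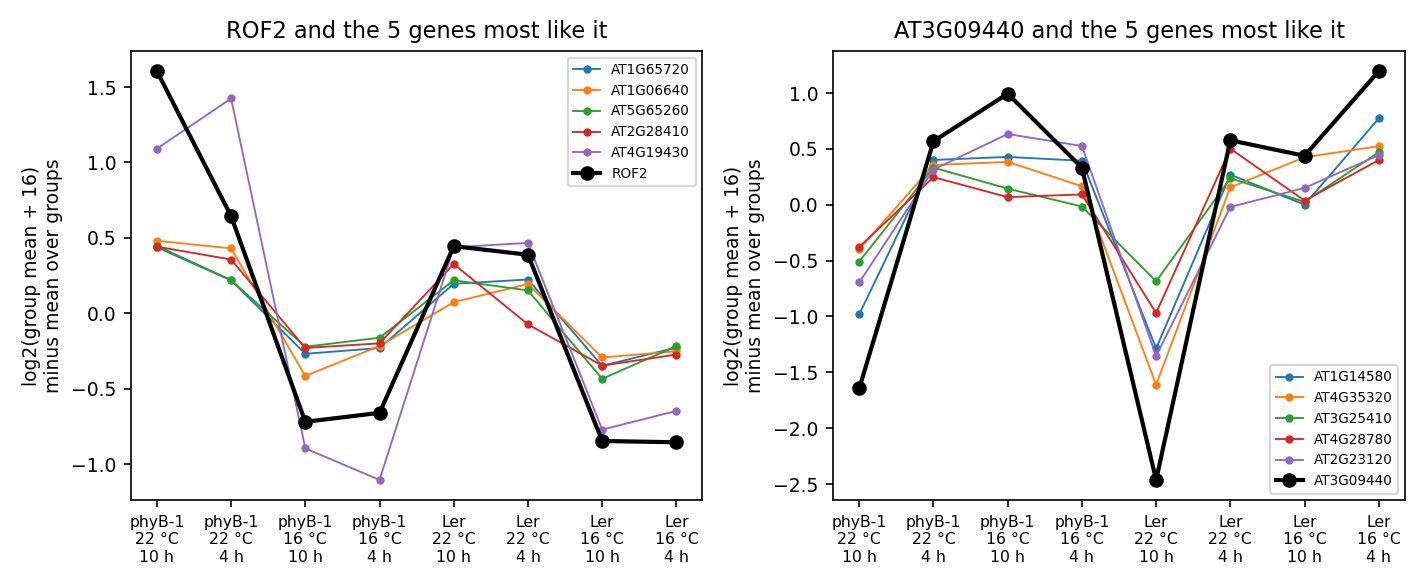
Group means of ROF2 (left) and AT3G09440 (right), in black, with the 5 genes of highest Pearson's r to each, as log2(group mean + 16) minus the gene's mean over the 8 groups. The ROF2 set is higher at 22 °C in both genotypes, and the AT3G09440 set dips at 22 °C and 10 h.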

How the data were processed

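The authors made the deposited intensity values with MAS5 in GCOS (no version given), as the submitters' processing notes state. They are linear, 1 per probe set, scaled to a 2% trimmed mean of 100.01 on every array. The file holds 22810 probe sets, of which 64 are controls and were left out. The platform annotation gave 1 gene for 13513 of the rest, several for 503 and none for 8730, and symbols came from the RefSeq gene table of TAIR10.1.

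Values were analysed as log2(intensity + 16) in R 4.3.3 with limma 3.58.1. The 13648 probe sets in the upper 60% by mean were fitted with 1 mean per group over all 16 arrays (eBayes with trend), with Benjamini-Hochberg adjustment over all of them. An adjusted p under 0.05 is a call. Arrays per group, 2, limit the precision.

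Replicate numbers were shared by the groups. Deviations of same-numbered arrays correlated above 0.1 in 27 of 28 pairs of groups (0.11 to 0.48). The exception, at -0.43, was the pair of phyB-1 groups at 16 °C, which hold the 2 arrays that go against their time labels. The fit reported has no block, since a block was to be used only if every pair exceeded 0.1, and its values are given where it changes a call.

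ROF2 and AT3G09440 and the lists were chosen with earlier results of these data known. The text names these 2 genes, the tested HSP70 and FK506-binding protein genes, up to 4 called genes per list and comparison, and the 5 genes most like each of the 2. The temperature difference in Ler, the genotype difference at each temperature and the genotype by temperature interaction carry no test. The tests of time, of genotype over all groups and of the interactions with time use the same Ler arrays for differences other than the one behind the choice. The alternatives changed the offset (1 or 64), the filter (none, upper 40%), the scaling, the trend, the block and the arrays used, and their effects are given in the closing section.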

Additional observations from a re-analysis of the deposited data

Results flagged for a closer look

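For AT3G09440 the phyB-1 minus Ler difference, averaged over both times, pointed in opposite directions at the 2 temperatures in each replicate set. It was 0.42 on the log2 scale at 22 °C (0.54 in replicate set 1 and 0.31 in set 2) and -0.17 at 16 °C (-0.22 and -0.12). By time label the directions were not opposite at 10 h, where the phyB-1 mean was 1.48 times the Ler mean at 16 °C and 1.89 times at 22 °C. At 4 h it was 0.54 times at 16 °C and 0.99 times at 22 °C. The value at 16 °C is thus a mean of opposite signs. In its replicate 1, the ratio was 1.24 at 10 h and 0.59 at 4 h. The difference between the 2 temperatures in the mean over both times, 0.59 ± 0.31, was not tested, because it contains the Ler temperature difference on which the gene was chosen. At 16 °C the time difference within phyB-1 includes the 2 arrays that go against their time labels, beside those of replicate 1, which fit theirs. The mean over both times uses each of the 2 arrays in doubt once, whichever time they belong to. Leaving out 1 array at a time, the difference at 16 °C averaged over both times ran between -0.36 and 0.03. Without the 2 arrays in doubt it was -0.44, or -0.22 with the replicate block as well, and the difference between the temperatures was 0.87 or 0.65.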

How the results depend on the processing

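The temperature difference of ROF2 in phyB-1 was called under all 10 alternative settings that could give it a value (0.95 with an offset of 64 to 2.78 with an offset of 1) and without any 1 array (1.69 to 1.96). With the filter at the upper 40% it was not tested. Its Ler difference was 2.25 with an offset of 1 and 0.56 with an offset of 64. Its time difference in phyB-1 at 22 °C was called at 0.64 with an offset of 64 (adjusted p = 0.029), and at 0.97 with 14 arrays (0.023) or the arrays compared alone (0.0063).

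For AT3G09440 the phyB-1 temperature difference missed the threshold with median centring (-1.16, adjusted p = 0.17) and with the arrays compared alone (-1.18, 0.16). Its time difference in phyB-1 at 22 °C missed it with median centring (-2.16, 0.053). The temperature by time interaction was called with the replicate block, at -2.33 in Ler (adjusted p = 0.013) and -2.82 in phyB-1 (0.0017), and with 14 arrays at -2.33 and -2.60. With the arrays compared alone it was called in Ler (-2.33, 0.020). The causes were not tested.

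Leaving out 1 array at a time gave AT3G09440 a temperature difference in phyB-1 of -1.37 to -0.99, a time difference in phyB-1 at 22 °C of -2.42 to -1.96, a temperature by time interaction in phyB-1 of -3.20 to -2.43 and a genotype by time interaction at 16 °C of 0.98 to 1.75. Without a replicate 1 array of phyB-1 at 16 °C, its group rests on replicate 2, which goes against its time label. The temperature by time interaction in phyB-1 was then -3.20 without the 10 h array and -2.65 without the 4 h array. The genotype by time interaction at 16 °C was 1.75 without the 10 h array. Every fit that leaves out 1 array leaves its group with 1 array. The same fits gave ROF2 a time difference in phyB-1 at 22 °C of 0.83 to 1.10, called without any 1 of the 4 phyB-1 arrays at 16 °C (adjusted p = 0.034 to 0.0497). The 2 replicate sets alone gave ROF2 opposite signs for the temperature by time interaction in Ler (-0.31 and 0.41) and the genotype by time interaction at 16 °C (-0.46 and 0.39), neither called.

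Counts of called probe sets moved more. For temperature in phyB-1, 87 became 57 with no filter, 50 with median centring, 8 with the arrays compared alone, and 521 and 790 with 14 arrays without and with the block (20 to 211 leaving out 1 array). For time over all groups, 2613 became 4466 and 5395 with 14 arrays. In Ler, 2346 became 3541 and 4416 (1210 to 2858 leaving out 1 array). In phyB-1 at 22 °C, 334 became 34 with no filter, 10 with median centring, 141 with no intensity trend, 2447 with the arrays compared alone, and 2127 and 2926 with 14 arrays (0 to 1301 leaving out 1 array). For genotype, 16 became 4 with an offset of 1, 6 with no filter or median centring, 7 with quantile normalization, and 130 and 264 with 14 arrays (4 to 62 leaving out 1 array). For the temperature by time interaction in Ler, 0 became 1 with the replicate block, 36 and 120 with 14 arrays and 28 with the arrays compared alone. In phyB-1, 0 became 1 with an offset of 64 or the block, and 10 and 63 with 14 arrays (0 to 1131 leaving out 1 array). For the genotype by time interaction, 0 became 1 at 22 °C with 14 arrays and the block and 3 with the arrays compared alone, and 0 to 1134 at 16 °C leaving out 1 array.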
